A study of Piaractus mesopotamicus and Piaractus mesopotamicus x Colossoma macropomum and Colossoma macropomum with 15 samples.

Results

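Pacu (PC, Piaractus mesopotamicus) and tambaqui (TQ, Colossoma macropomum) are the parental species of the farmed hybrid tambacu (TC), and their fast muscle was compared by small RNA sequencing in 5 PC and 5 TQ fish. All were untreated early juveniles kept in aerated tanks until sampling, the muscle was cut from the back near the dorsal fin, and each library came from 1 fish. The comparison asks how far the miRNA profiles of both parents had diverged. Of 369 mature miRNA names listed, 152 were followed, those with at least 1 copy whose mean normalized count over the 10 PC and TQ fish reached 10. Their 199 annotated copies were treated as 152 observations, each represented by the copy with the highest total count. The 5 TC fish, from the cross of tambaqui females with pacu males, also entered the fit and its scaling. The labels name no tank or library batch, so a difference between species and one between such units cannot be told apart.

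miRNAs are short RNAs cut from a hairpin precursor, one from its 5′ arm (5p) and one from its 3′ arm (3p), that guide Argonaute proteins to messenger RNAs. Pairing to the target runs mainly through the seed, the bases just after the 5′ end, so miRNAs that share a seed form a family with overlapping targets. In muscle, a small group of miRNAs produced in striated fibers, among them miR-1, miR-206 and miR-499, regulates the growth and type of the fibers, while blood, vessels, nerves and connective tissue in the same piece of muscle bring miRNAs of their own.

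The results below turn on 20 miRNAs that differed between PC and TQ, and 19 of them had a Danio rerio sequence on a miRBase precursor in the supplementary files of the study. They are shown to make clear which of them share a seed, since these are the reference sequences the reads were counted on. Capitals mark the seed, bases 2 to 8 from the 5′ end. The first 12 were higher in PC.
miR-7a: tGGAAGACtagtgattttgttgt
miR-132-3p: tAACAGTCtacagccatggtcg
miR-499-5p: tTAAGACTtgcagtgatgttta
miR-499-3p: aACATCACtttaagtctgtgct
miR-122: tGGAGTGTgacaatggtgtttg
miR-489: aGTGACATcatatgtacggctgc
miR-146b: tGAGAACTgaattccaagggtg
miR-26a-2-3p: cCTATTCAtgattacttgcact
miR-124-5p: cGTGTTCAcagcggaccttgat
miR-192: aTGACCTAtgaattgacagcc
miR-27d: tTCACAGTggctaagttcttca
miR-204-5p: tTCCCTTTgtcatcctatgcct
The next 7 were lower in PC.
miR-216b: tAATCTCTgcaggcaactgtga
miR-2188-3p: cTGTGTGAggttagacctatc
miR-451: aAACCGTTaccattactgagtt
miR-216a: tAATCTCAgctggcaactgtga
miR-210-5p: aGCCACTGactaacgcacattg
miR-223: tGTCAGTTtgtcaaatacccc
miR-19d-3p: tGTGCAAAcccatgcaaaactga
The 4 that follow share a seed with one of the above and were not called.
miR-7b: tGGAAGACttgtgattttgtt
miR-146a: tGAGAACTgaattccatagatgg
miR-27b-3p: tTCACAGTggctaagttctgca
miR-19a-3p: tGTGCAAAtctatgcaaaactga
Counted from the 5′ end, with the base of the first-named miRNA first, miR-7a differed from miR-7b by A10T, miR-146b from miR-146a by A17T, G18A and G20A, miR-27d from miR-27b-3p by T20G, and miR-19d-3p from miR-19a-3p by C9T and C11T. The 2 pancreas miRNAs differed inside the seed, miR-216a from miR-216b by A8T, and outside it by T11A. miR-212-5p is given by name only. The sequences of the 12 higher miRNAs had a median GC content of 44.2% and those of the 7 lower ones 45.5%, beside 45.5% for the 147 of 152 with a sequence, and all 3 sets had a median length of 22 bases.

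In 2 cases the copies of one mature sequence behaved differently. The stretches below show what sets the copies apart, with the mature sequence, identical in all copies, in capitals and up to 6 flanking precursor bases in lower case. miR-206-3p lay at positions 59 to 80 of mir-206-1 (copy 1) and 64 to 85 of mir-206-2 (copy 2). miR-7a lay at positions 3 to 25 of mir-7a-1 (copy 1), 13 to 35 of mir-7a-2 (copy 2) and 28 to 50 of mir-7a-3 (copy 3), and only 2 bases precede it in mir-7a-1.
miR-206-3p copy 1: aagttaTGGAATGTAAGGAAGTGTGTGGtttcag
miR-206-3p copy 2: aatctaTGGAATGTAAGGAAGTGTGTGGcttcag
miR-7a copy 1: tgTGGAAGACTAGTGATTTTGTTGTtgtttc
miR-7a copy 2: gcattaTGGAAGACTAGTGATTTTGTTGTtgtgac
miR-7a copy 3: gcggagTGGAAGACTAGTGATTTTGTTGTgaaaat

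The total count over all copies spanned 2918058 to 5089685 in PC, against 2448658 to 4143529 in TQ, and was higher in PC (exact permutation test, two-sided, p = 0.0238, n = 5 each), although p reached 0.0635 when single fish were left out. Levels are given as CPM, the count of a copy relative to the library size scaled by TMM, so that 3 counts correspond to 1.07 to 2.31 CPM in PC and 1.13 to 2.47 CPM in TQ. All 20 pairs of fish of one species differed by more than sampling noise (chi-square per degree of freedom, 81.6 to 3355, which covers counting error only), and each fish was counted as 1 replicate. Over the 152 miRNAs, 37.6% of the sum of squares of log2(CPM + 1) lay between the species (exact permutation test over 252 arrangements, p = 0.00794, the smallest this design allows). PC4 stood apart from the other pacu. Its root mean square distance was 0.63 to the mean of the other PC fish and 0.64 to the mean of the TQ fish on the log2 scale, while PC3, PC5, PC8 and PC10 lay at 0.50, 0.49, 0.59 and 0.36 from the other PC fish and at 0.83, 0.64, 0.89 and 0.74 from TQ. PC8 had the lowest TMM factor, 0.572, and, with 1 copy per name counted, the highest share of counts on miR-100-5p (35.5%) and miR-99 (19.0%).

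**Figure D1:**
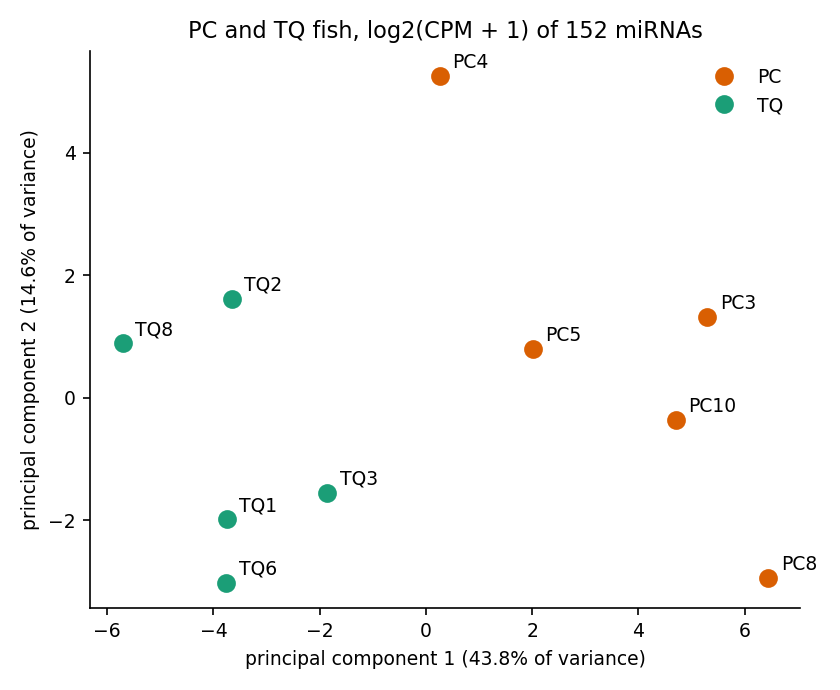
Principal components 1 and 2 of log2(CPM + 1) over 152 miRNAs, 1 point per fish, PC in orange and TQ in green. The 5 PC fish lie to the right of the 5 TQ fish on component 1 (43.8% of the variance), and PC4 is the nearest of them to TQ and the highest on component 2 (14.6%).

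The profiles of both species were close for most miRNAs. The log2FC, PC over TQ, stayed under 0.5 in size for 99 of 152 miRNAs (65.1%), and its median size was 0.33. A miRNA was called DE at a log2FC of at least 0.75 in size and an adjusted p (padj) of at most 0.05. In PC vs. TQ, 20 miRNAs were DE, 13.2% of those tested, with 13 upregulated (8.55%) and 7 downregulated (4.61%) in PC. Without PC4, the counts were 20 upregulated and 12 downregulated, and these 32 included all 20, while without TQ8, which had the highest TMM factor, 8 and 5 remained. Without the TC fish, the counts were 10 upregulated and 9 downregulated, 16 of them among the 20, and leaving out TC3, TC6 or TC8 alone gave 10 and 10, 11 and 11, and 11 and 11. The split of directions depended on the scaling. With DESeq2's size factors in edgeR (RLE) it was 13 up and 11 down, and with plain total counts it was 4 up and 15 down, 11 of the 19 being among the 20, as the median log2FC of all miRNAs was -0.25 in place of 0.11. All 20 kept their direction under each scaling, and the log2FC values below should be read against that median of 0.11.

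**Figure D2:**
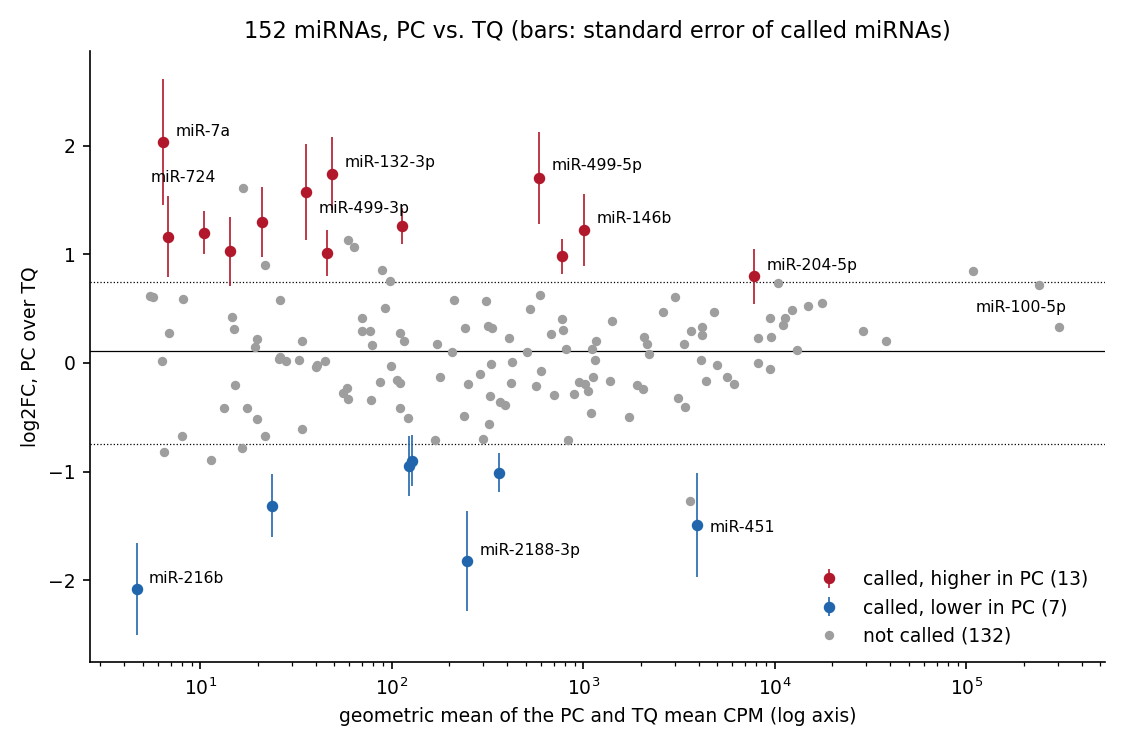
log2FC (PC over TQ) against the geometric mean of the PC and TQ mean CPM (log axis) for 152 miRNAs, with the standard error of the 20 called ones. Dotted lines mark 0.75 in both directions and the solid line the median of 0.11. Upregulated miRNAs (13, red) and downregulated ones (7, blue) ran from miR-216b at a few CPM to miR-204-5p, while miR-100-5p and the other most abundant miRNAs were not called. The median of the mean CPM in PC was 65.0 for the upregulated and 92.8 for the downregulated set, against 274 for all 152. In TQ it was 26.6 and 174, against 313.

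For 17 miRNAs (11.2%) the 5 PC values and the 5 TQ values in CPM did not overlap. Of these, 12 were higher and 5 lower in PC. The count involves no test, but it rests on CPM and so on the TMM scaling. Of the 20 DE miRNAs, 10 were among the 17. Leaving out PC4, an alternative chosen after seeing the data, raised the count to 27. Over all single fish left out it ranged from 17 to 27. Fewer values in a group leave less to overlap, so the count tends to rise whichever fish is left out. In what follows, values of single fish are given in the order PC3, PC4, PC5, PC8, PC10 and TQ1, TQ2, TQ3, TQ6, TQ8.

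**Figure D3:**
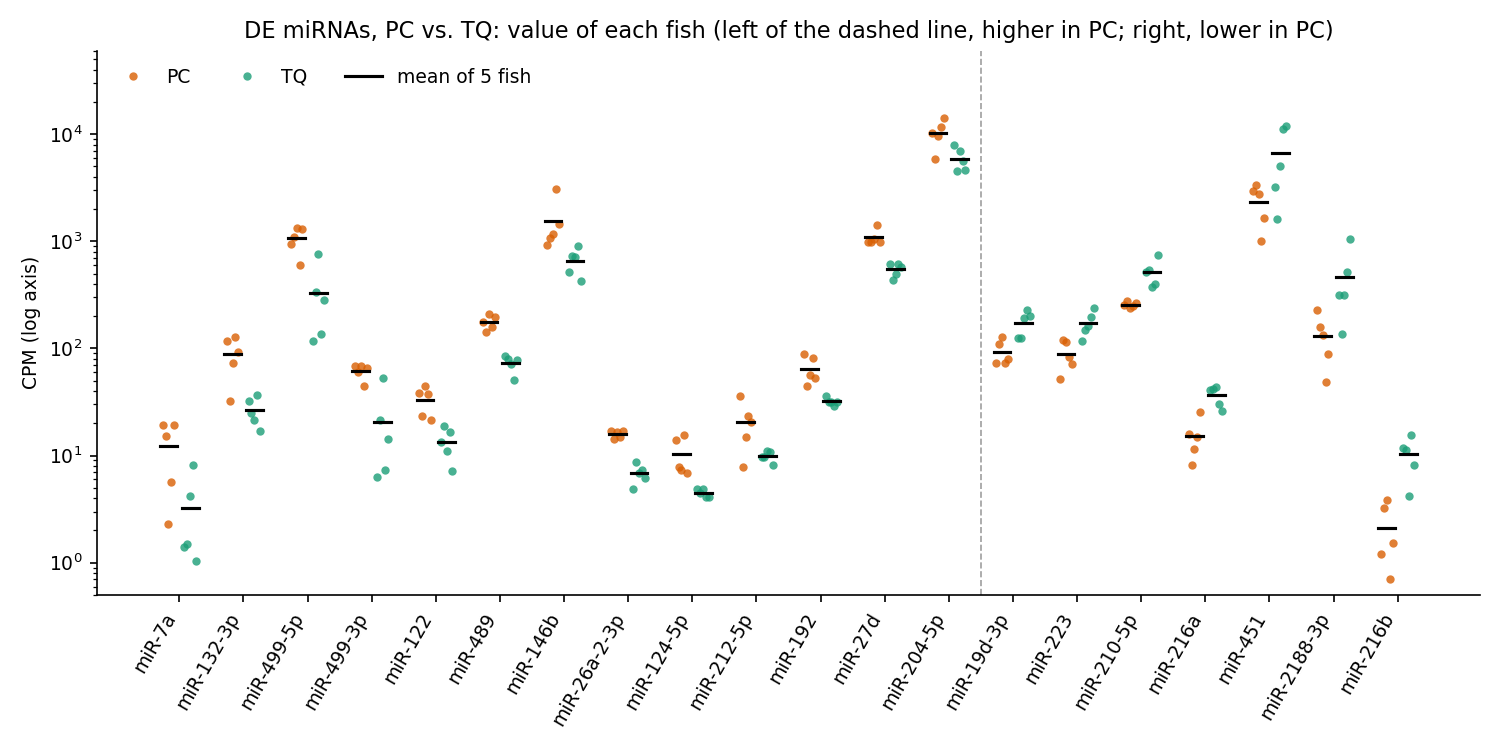
CPM of each fish (log axis) for the 20 DE miRNAs, PC in orange to the left of TQ in green, with the mean of 5 fish as a bar. The 13 upregulated in PC stand left of the dashed line and the 7 downregulated right of it, each set ordered by log2FC. The groups do not overlap for miR-122, miR-489, miR-146b, miR-26a-2-3p, miR-124-5p, miR-192, miR-27d, miR-210-5p, miR-216a and miR-216b.

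Among the miRNAs of striated muscle, both arms of miR-499 were upregulated in PC. miR-499 is encoded inside a slow-type myosin heavy chain gene and marks slow fibers. miR-499-5p had 948, 1108, 1343, 606 and 1314 CPM in PC, against 118, 333, 759.8, 137 and 285 CPM in TQ (log2FC = 1.70 ± 0.42 (SE), padj = 0.0121). Every PC fish but PC8 exceeded all TQ fish, and TQ3 was the TQ fish that reached into the PC range. miR-499-3p, the less abundant arm, had 68.5, 60, 68.3, 44.7 and 66.1 CPM in PC, against 6.29, 21.4, 53.3, 7.41 and 14.4 CPM in TQ (log2FC = 1.57 ± 0.44 (SE), padj = 0.0199), and TQ3 again stood out. The ratio of both arms did not separate the species (log2 ratio of 5p to 3p, 4.07 ± 0.28 in PC and 4.07 ± 0.18 in TQ, SD, n = 5 each, exact permutation test, p = 0.992). The 3p arm missed the threshold narrowly without TQ8 (padj = 0.0501).

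In such bulk samples, fewer cells of a type and less RNA per cell cannot be told apart. miR-1, produced in all striated muscle, had 1945, 1549.9, 1747, 1509.7 and 1327 CPM in PC, against 1198, 1292, 1327, 1391 and 982 CPM in TQ (log2FC = 0.38 ± 0.16 (SE), padj = 0.0865). Its levels overlapped and the difference did not pass. miR-206-3p, a skeletal muscle miRNA with the same seed as miR-1, had 342, 303, 366, 475 and 415 CPM in PC, against 206, 264, 264, 260.2 and 284 CPM in TQ. The 5 PC values lay above the 5 TQ values, but the fit across all miRNAs did not call it (log2FC = 0.57 ± 0.30 (SE), padj = 0.16). The TC fish, which enter the same estimate of spread, ranged from 248 to 917 CPM. None of the 11 alternatives called it either, with padj from 0.0443 to 0.785. Of the 6 listed markers of striated muscle, 3 were followed, 1 was upregulated (8.55% of all 152 were) and the median log2FC was 0.57, and their summed level was 2591 to 3456 CPM in PC and 1522 to 2351 CPM in TQ. The muscle markers miR-133a-3p and miR-133b-3p were listed at 0 in all 10 fish, and no level could be read from them. Both have an annotated place on a precursor that overlaps the place of another mature name, as did 170 of the 293 placed copies listed at 0 and none of the 185 placed copies followed here.

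miR-489, which keeps muscle satellite cells quiescent in the mouse, was upregulated in PC with the smallest padj of all. It had 176, 141, 207, 158 and 195 CPM in PC, against 85.3, 80.1, 71.3, 50.2 and 78.8 CPM in TQ (log2FC = 1.26 ± 0.16 (SE), padj = 0.000109). Every PC fish was above every TQ fish. Of the 11 miRNAs linked to myogenesis, 8 were followed, with 1 called, near the 13.2% called among all 152, and a median log2FC of 0.02, which turned negative under the other scalings. miR-27b-3p, which favours myoblast differentiation by targeting Pax3 in the mouse, passed the padj threshold with a small change (log2FC = 0.55, padj = 0.0326). miR-181a-5p had a log2FC of 0.00 and miR-214 of 0.03, both negative under RLE scaling and total counts, while that of the others was -0.24 (miR-29a), -0.13 (miR-221-3p), -0.25 (miR-222a-3p) and 0.62 (miR-31), with padj of 0.194 or more.

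Several miRNAs best known from neurons were upregulated in PC. miR-132-3p, which is induced by neuronal activity in mammals, had 118, 32.2, 73.7, 128 and 92.2 CPM in PC, against 32.1, 25.2, 21.5, 37.1 and 17 CPM in TQ (log2FC = 1.74 ± 0.33 (SE), padj = 0.00234). Apart from PC4, the PC fish were above every TQ fish. miR-212-5p, from the same cluster, had 35.8, 7.86, 15, 23.4 and 20.7 CPM in PC, against 9.78, 9.78, 11.1, 10.7 and 8.24 CPM in TQ (log2FC = 1.03 ± 0.32 (SE), padj = 0.0296), and PC4 lay below every TQ fish while the other PC fish lay above them. miR-124-5p, the minor arm of the most abundant neuronal miRNA, had 13.9, 7.86, 7.33, 15.6 and 6.92 CPM in PC, against 4.89, 4.51, 4.84, 4.12 and 4.12 CPM in TQ (log2FC = 1.16 ± 0.37 (SE), padj = 0.0328). Its counts were low, 9 to 23 in PC and 5 to 12 in TQ, although the groups did not overlap. PC gave 95 of its 134 counts and carried it past the count minimum.

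miR-7a, a miRNA of brain and endocrine cells, had the largest log2FC among the upregulated miRNAs and rested on few reads and on 1 copy. Copy 3 represented the miRNA because of its total, 138 counts against 133 on copy 1. That lead came from PC (114 against 79), since in TQ copy 3 was the lower one (24 against 54). The choice of copy therefore favoured a higher value in PC. Copy 3 was counted 32, 43, 6, 8 and 25 times in PC, against 2, 4, 6, 10 and 2 times in TQ (log2FC = 2.03 ± 0.58 (SE), padj = 0.0233). PC5 and PC8 lay inside the TQ range. The miRNA was not called without any one of PC3, PC10, TQ1, TQ2 and TQ8 (padj of up to 0.076). The call was also lost with the copies summed, with only PC and TQ fish in the fit and with the fish number as a block. That block fit could not use PC10, TQ1 or TQ2 for the contrast, since no other fish shares their numbers. Copies 1 and 2 were counted identically, 19, 24, 9, 9 and 18 times in PC, against 5, 11, 18, 16 and 4 times in TQ, and were not DE when each copy was fitted on its own (log2FC = 0.23 ± 0.47, padj = 0.764). miR-7b, with the same seed, was not DE (log2FC = 0.20, padj = 0.518).

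Calls for miR-124-5p and miR-212-5p depended on single fish. miR-124-5p was not called without any one of PC3, PC8, PC10, TC3, TQ1, TQ2, TQ3, TQ6 and TQ8 (padj of up to 0.123), and miR-212-5p not without any one of PC3, PC8, PC10, TC3, TC6, TC8, TQ1, TQ2 and TQ8 (padj of up to 0.13, log2FC down to 0.65 without PC3). miR-132-3p was called in every fit that left out 1 fish and under all 11 alternatives. miR-124-5p was not on the list of 14 neural miRNAs, of which 8 were followed, 3 (miR-7a, miR-132-3p and miR-212-5p) were upregulated and none was downregulated, beside 8.55% and 4.61% of all 152, with a median log2FC of 0.26 (-0.10 with total counts). The major arm miR-124-3p and miR-9-5p, 2 defining neuronal miRNAs, were below the count minimum. The part of nervous tissue in these differences was not tested.

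miRNAs of digestive organs moved in both directions, at low levels. miR-122, the dominant miRNA of liver, had 38.2, 23.2, 44.7, 37.6 and 21.5 CPM in PC, against 13.3, 18.8, 11.1, 16.5 and 7.21 CPM in TQ (log2FC = 1.30 ± 0.32 (SE), padj = 0.0121). miR-192, found in liver and gut, had 89.1, 44.7, 56.3, 81.7 and 53 CPM in PC, against 35.6, 32, 31.8, 28.8 and 31.9 CPM in TQ (log2FC = 1.01 ± 0.21 (SE), padj = 0.00389). All PC values of both miRNAs lay above all TQ values. The miRNAs of exocrine pancreas went the other way. miR-216a, of exocrine pancreas, had 15.8, 8.22, 11.6, 14.9 and 25.4 CPM in PC, against 41.2, 41.7, 43.6, 30.5 and 26.3 CPM in TQ (log2FC = -1.31 ± 0.29 (SE), padj = 0.00679), and PC10 at 25.4 CPM came closest to the TQ fish. miR-216b was counted 2, 9, 10, 1 and 2 times in PC, against 17, 30, 6, 19 and 16 times in TQ, that is 1.21, 3.22, 3.86, 0.71 and 1.54 CPM in PC, against 11.9, 11.3, 4.15, 15.6 and 8.24 CPM in TQ (log2FC = -2.08 ± 0.42 (SE), padj = 0.0034). No PC fish reached the TQ range in CPM, but 4 of the 10 counts were 6 or fewer. It met the count minimum, with a mean normalized count of 11.2, only through the TQ fish. The filter thus favoured the direction seen. miR-216a was one of the 2 miRNAs called under all 11 alternatives. miR-375, of pancreatic islets, did not pass (log2FC = 0.90 ± 0.36 (SE), padj = 0.0865), with 15.6 to 42 CPM in PC and 6.39 to 22.4 CPM in TQ.

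The summed level of the 2 followed of 4 liver and intestine markers was 67.9 to 127 CPM in PC and 39.2 to 50.8 CPM in TQ, and that of the 3 followed of 4 pancreas markers 31.2 to 59.2 CPM in PC and 56.7 to 75.5 CPM in TQ. miR-194b was listed at 0, while miR-194a and miR-217, companions of miR-192 and miR-216, were below the count minimum. Whether RNA of these organs had a part in the differences was not tested.

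The erythroid miRNA miR-451, which matures through Argonaute instead of Dicer and accumulates in red blood cells, was downregulated in PC. It had 2946, 3381, 2769, 998 and 1638 CPM in PC, against 3235, 1599.6, 5064, 11232 and 11951 CPM in TQ (log2FC = -1.49 ± 0.48 (SE), padj = 0.0328). TQ6 and TQ8 were the highest fish, while TQ1 and TQ2 lay within the PC range. It was not called without any one of PC3, PC8, PC10, TQ6 and TQ8 (padj of up to 0.0964). miR-144-3p, from the same cluster, did not pass, with 4795, 2177, 6058, 4438 and 5275 CPM in PC, against 3008, 965, 3138, 7733 and 4218 CPM in TQ (log2FC = 0.26 ± 0.45 (SE), padj = 0.679, and a log2FC of -0.08 with total counts). The summed level of both markers was 5437 to 8827 CPM in PC and 2565 to 18964 CPM in TQ, a wider range between TQ fish than between PC fish, and the part of blood in the difference was not tested.

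miR-2188-3p, a miRNA known from fish, was downregulated in PC. It had 229, 157, 133, 49 and 89.1 CPM in PC, against 318, 137, 316, 517 and 1051 CPM in TQ (log2FC = -1.82 ± 0.46 (SE), padj = 0.0121). TQ8 and TQ6 were again the highest and TQ2 the lowest TQ fish, and TQ2 lay within the PC range. Its 5p arm, the more abundant one, had 2845, 2534, 3348, 1143 and 1791 CPM in PC, against 3120.1, 1434, 4528, 10302 and 8755 CPM in TQ and missed the padj threshold (log2FC = -1.27 ± 0.46 (SE), padj = 0.0678). The 5p arm was called in 5 of 11 alternatives, with padj of 0.0137 in DESeq2 without a log2FC prior. The log2 ratio of 5p to 3p was 4.23 ± 0.41 in PC and 3.58 ± 0.50 in TQ (SD, n = 5 each) and missed the threshold of the exact permutation test (p = 0.0556, adjusted p = 0.25 over 21 pairs).

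Leukocyte miRNAs were split. miR-223, of neutrophils and other myeloid cells, was downregulated in PC, with 52.1, 119, 116, 83.8 and 72.2 CPM in PC, against 117, 150.1, 161, 198 and 236 CPM in TQ (log2FC = -0.95 ± 0.27 (SE), padj = 0.0233). PC4 reached the lowest TQ fish, TQ1, and the call was lost without TQ8 (padj = 0.064). miR-150, of mature lymphocytes, was lower in all 5 PC fish than in any TQ fish, with 145, 208, 313, 276 and 234 CPM in PC, against 319, 354, 435, 348 and 462 CPM in TQ, and missed the log2FC minimum (log2FC = -0.70 ± 0.18 (SE), padj = 0.0134). miR-155, of activated lymphocytes, had log2FC = -0.89, padj = 0.0731, and both arms of the pan-leukocyte miRNA miR-142a had log2FC of -0.50 (3p, padj = 0.0941) and -0.17 (5p, padj = 0.429). miR-146b went the other way. This miRNA, induced by inflammatory signalling and acting back on it, had 915, 1070.1, 1172, 3089.8 and 1452 CPM in PC, against 513, 728, 719, 904 and 424 CPM in TQ (log2FC = 1.23 ± 0.33 (SE), padj = 0.0174), and PC8 stood well above the next PC fish. Over the 15 fits that left out 1 fish its log2FC ranged from 0.77 to 1.37 and it was called in each, with the lowest value without PC8. Its relative miR-146a had 15812, 7531, 9305, 21751 and 12518 CPM in PC, against 6629, 10300.4, 9658, 9235 and 4314 CPM in TQ and did not pass (log2FC = 0.74 ± 0.32 (SE), padj = 0.0989). Of the 7 leukocyte markers, all followed, 1 was upregulated and 1 downregulated, beside 8.55% and 4.61% of all 152, with a median log2FC of -0.50 under a background median of 0.11.

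The endothelial markers miR-126a and miR-126b, both arms, were listed at 0 in all 10 fish, and each has an annotated place that overlaps another mature name. A level of vessels could therefore not be read from them.

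miR-210, which is induced by low oxygen through HIF-1 in many vertebrate cells, was lower in PC on both arms, and 1 arm was called. miR-210-5p had 253, 278, 237, 251 and 264 CPM in PC, against 522, 537, 374, 399 and 751 CPM in TQ (log2FC = -1.01 ± 0.18 (SE), padj = 0.0013). The PC fish were tightly grouped (257 ± 15.3 CPM, SD, n = 5) and all lay below the TQ fish (516 ± 149 CPM, SD, n = 5). miR-210-3p, usually taken as the active arm, had 597, 909, 633, 485 and 612 CPM in PC, against 1218, 1393, 754, 875 and 1042 CPM in TQ (log2FC = -0.71 ± 0.21 (SE), padj = 0.0258), past the padj threshold and just short of the log2FC minimum. PC4 lay among the TQ fish there. The ratio of the arms did not separate the species (log2 ratio of 5p to 3p, -1.30 ± 0.28 in PC and -1.04 ± 0.35 in TQ, SD, n = 5 each, exact permutation test, p = 0.238).

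The remaining DE miRNAs belong to widely expressed families. miR-27d, which shares its seed with 4 other members of the miR-27 family, had 980.3, 992, 1052, 1409.6 and 991 CPM in PC, against 618, 439, 499.6, 618 and 573 CPM in TQ (log2FC = 0.98 ± 0.16 (SE), padj = 0.000886). Each PC fish exceeded each TQ fish, and 4 of the 5 PC values lay within 980 to 1052 CPM. miR-26a-2-3p, the passenger strand of a miR-26a precursor, had 17, 14.3, 16.6, 14.9 and 16.9 CPM in PC, against 4.89, 8.65, 6.92, 7.41 and 6.18 CPM in TQ (log2FC = 1.20 ± 0.20 (SE), padj = 0.000886), and its groups were far apart relative to their spread. miR-204-5p, known from the retina and its pigment epithelium, was the most abundant DE miRNA, with 10188, 5812, 9517, 11562 and 14290.5 CPM in PC, against 7857, 4484, 7001, 5564 and 4608 CPM in TQ (log2FC = 0.80 ± 0.25 (SE), padj = 0.0327). Its call was the least stable, since it was lost without any one of PC3, PC8, PC10, TC3, TC6, TC8, TQ2, TQ6 and TQ8 (padj of up to 0.128) and held under 4 of 11 alternatives. miR-19d-3p, a relative of the growth-promoting miR-17-92 cluster, was downregulated in PC, with 73.4, 110.4, 128, 72.4 and 79.2 CPM in PC, against 126, 126, 190.3, 227 and 201 CPM in TQ (log2FC = -0.90 ± 0.23 (SE), padj = 0.0142), and PC5 lay inside the TQ range.

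Reading the members by shared seed, 103 seeds were present among the 147 miRNAs with a sequence, 23 of them in more than 1 member. The 19 DE miRNAs with a sequence fell on 19 seeds, and 4 of these seeds had further members. In none of the 4 was every member DE. The miR-27 family had 5 members with log2FC from 0.30 to 0.98, all positive (miR-27e turned to -0.08 with total counts), and miR-27d alone was called. It was followed by miR-27a-3p (0.62, padj = 0.165), miR-27b-3p (0.55, padj = 0.0326), miR-27c-3p (0.49, padj = 0.0199) and miR-27e (0.30, padj = 0.16). Both miR-146 members and both miR-7 members had a positive log2FC (miR-7b turned to -0.16 with total counts), and both miR-19 members a negative one, miR-19a-3p reaching -0.49 (padj = 0.0999). Whether the called member differed from its relatives was not tested.

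The let-7 family, the largest, had no DE member. Its 10 miRNAs had log2FC from -0.19 to 0.33 with a median of 0.14 (-0.22 with total counts). miR-130, miR-301 and miR-454, 5 members with one seed, were all at or below 0, from -0.51 to -0.01, with none called. The 4 members with the miR-17 seed lay between -0.36 and -0.19 and the 3 with the miR-15 seed between -0.39 and -0.21. miR-100-5p and miR-99, which share a seed and differ by 1 base outside it, had log2FC of 0.72 (padj = 0.114) and 0.85 (padj = 0.114), and PC8 was the highest fish for both, while without PC8 both log2FC were 0.25.

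**Figure D4:**
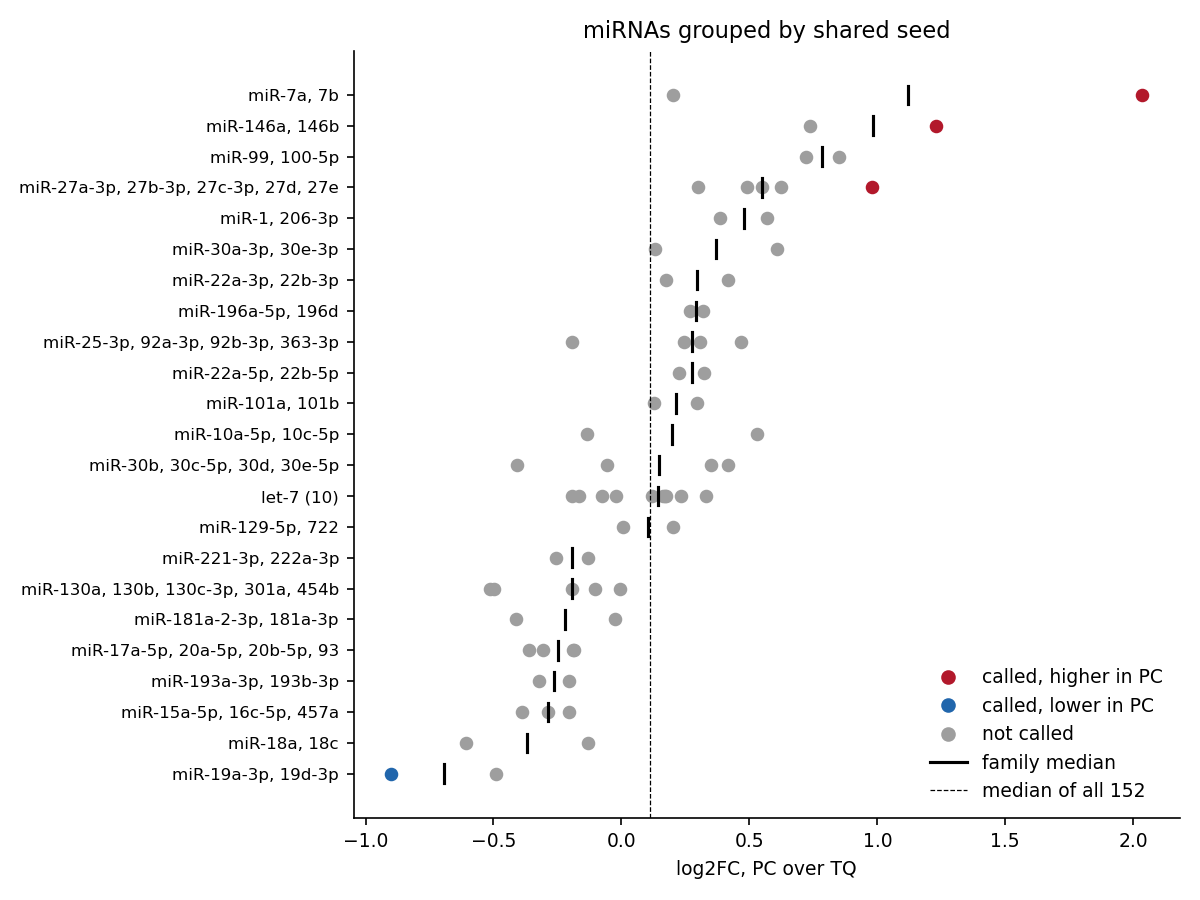
log2FC (PC over TQ) of every member of the 23 seeds found in more than 1 miRNA, with the family median as a black bar and the median of all 152 miRNAs as a dashed line. Single members were called in the miR-7, miR-146, miR-27 and miR-19 families, and the 10 let-7 miRNAs lie between -0.19 and 0.33.

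Both arms of a miRNA were followed in 21 pairs, and their ratio does not depend on scaling. Each arm was represented by its own copy with the highest total count. For names with several copies, the arms may therefore come from different precursors. None of the 21 (0.0%) passed an adjusted p of 0.05 by the exact permutation test, and 1 had an unadjusted p under 0.05. That pair was miR-140, a miRNA of cartilage, whose log2 ratio of 5p to 3p was -3.23, -2.67, -1.85, -1.94 and -2.02 in PC, against -1.61, -1.64, -1.26, -1.25 and -1.81 in TQ (p = 0.00794, adjusted p = 0.167, exact permutation test, n = 5 each). All 5 PC ratios lay below all TQ ratios. Its 3p arm was also higher in every PC fish than in any TQ fish, with 355, 277, 248, 200.3 and 214 CPM in PC, against 163, 171, 178, 185 and 170.0 CPM in TQ, and missed the log2FC minimum (log2FC = 0.58 ± 0.17 (SE), padj = 0.0258). Across the 21 pairs the smallest reachable p leaves an adjusted p of 0.167, so a single pair could not have passed.

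Copies of 6 miRNAs differed by more than 5% in total count, and the ratio of each to its highest copy was compared. One of the 6 (16.7%) passed. For miR-206-3p, copy 2 was counted 404, 538, 633, 537 and 394 times in PC, against 185, 406, 212, 197 and 294 times in TQ, and copy 1 was counted 564, 847, 949, 669 and 540 times in PC, against 295, 703, 382, 316 and 551 times in TQ. The log2 ratio of copy 2 to copy 1 was therefore -0.50 ± 0.13 in PC and -0.78 ± 0.10 in TQ (SD, n = 5 each), a difference of 0.28 (exact permutation test, two-sided, p = 0.00794, adjusted p = 0.0476). The ratios did not overlap, but PC4 at -0.65 and TQ1 at -0.67 nearly met. Leaving out PC8, TQ2, TQ3, TQ6 or TQ8 in turn left no ratio past the threshold, while leaving out TQ1 gave 2. The adjusted p of 0.0476 was already the smallest that a single ratio of the 6 could reach, so any larger p lost the threshold. The miR-206-3p ratios of both species stayed apart whichever fish was left out, so these losses do not show dependence on single fish. Neither copy was DE on its own, with log2FC of 0.45 (padj = 0.288) for copy 1 and 0.76 (padj = 0.131) for copy 2.

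The copies of miR-7a differed by less than 5% in total (138 counts on copy 3 and 133 on copy 1) and so did not enter that test, and their ratio was looked at after its values had been seen. The log2 ratio of copy 1 to copy 3 was -0.74, -0.83, 0.55, 0.16 and -0.46 in PC, against 1.14, 1.35, 1.51, 0.65 and 0.85 in TQ. The 2 sets did not overlap. The ratios of let-7a, miR-204-5p, miR-212-5p, miR-92a-3p and miR-99 copies did not pass (adjusted p = 0.0952 to 0.905).

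**Figure D5:**
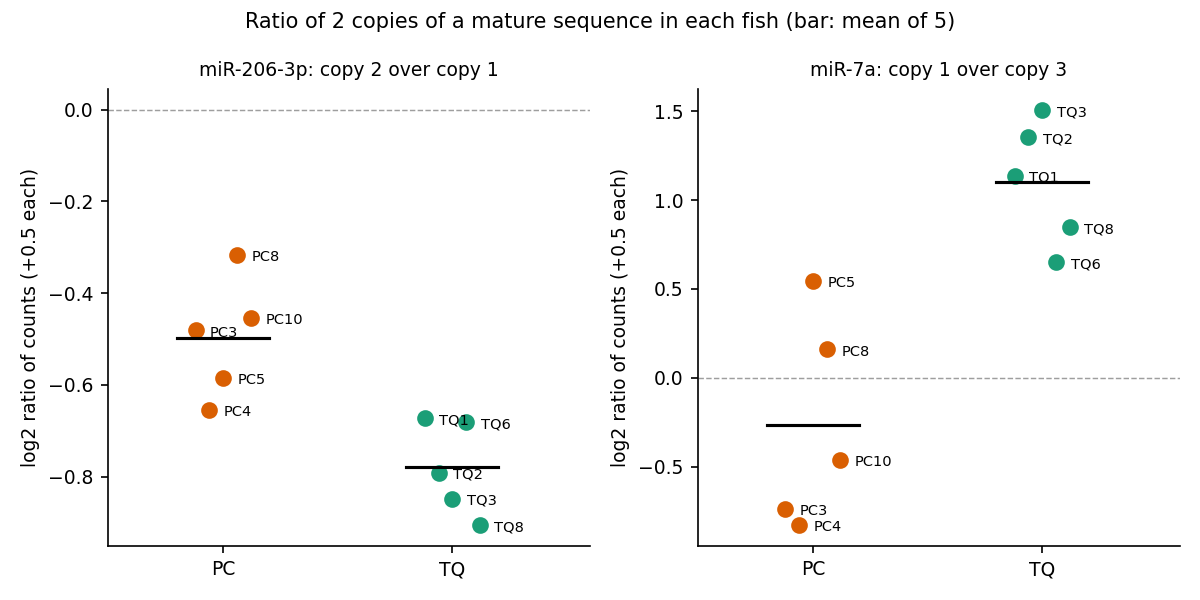
log2 ratio of the counts (+0.5 each) of 2 copies of one mature sequence in each fish, PC left of TQ, with the mean of 5 fish as a bar. For miR-206-3p (copy 2 over copy 1) the PC fish lie from -0.65 to -0.32 and the TQ fish from -0.91 to -0.67, and for miR-7a (copy 1 over copy 3) the PC fish lie from -0.83 to 0.55 and the TQ fish from 0.65 to 1.51.

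Beyond the 20 called miRNAs, 9 passed the padj threshold with a smaller change and 11 passed the log2FC minimum with a larger padj. The smallest padj among the 9 belonged to miR-92a-3p (log2FC = 0.47, padj = 0.0121), miR-1388-3p (log2FC = -0.71, padj = 0.0121), miR-150, miR-27c-3p (log2FC = 0.49, padj = 0.0199) and, with equal padj, miR-210-3p and miR-140-3p. miR-92a-3p had 5646, 5927, 5663, 5442 and 5488 CPM in PC, against 3826, 3684, 3709.9, 3892 and 5259 CPM in TQ, a narrow PC range above all TQ fish. miR-1388-3p, a miRNA described in fish, had 75.2, 148, 143, 156 and 131 CPM in PC, against 198, 188, 232, 241 and 212 CPM in TQ, and no PC fish reached TQ. The largest log2FC among the 11 was that of miR-724, with 13.9, 79, 14.3, 17.8 and 19.2 CPM in PC, against 11.9, 6.02, 9.69, 4.94 and 15.5 CPM in TQ (log2FC = 1.61 ± 0.64 (SE), padj = 0.0865). PC4 alone was far above the rest, and without it the log2FC was 0.74. miR-2188-5p, miR-184 (log2FC = 1.13 ± 0.40 (SE), padj = 0.0616), miR-7147 (log2FC = 1.07 ± 0.43 (SE), padj = 0.0865) and miR-375 followed, and the PC and TQ values of all 5 overlapped. At an unadjusted p under 0.05 there were 60 miRNAs.

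The most abundant of the counted miRNAs did not separate the species. Shares are taken of the total over 1 copy per name, not of the total over all copies. They cover only names that received counts, so miRNAs listed at 0, such as miR-133a-3p and miR-26a-5p, have no place in this ranking. miR-199-5p, found in connective and muscle tissue, took 30.8% ± 5.65 of the counts in PC and 32.4% ± 1.32 in TQ (SD, n = 5 each). miR-100-5p took 25.4% ± 6.58 in PC and 22% ± 2.87 in TQ, and miR-99 took 11.7% ± 4.71 in PC and 9.52% ± 1.30 in TQ. miR-21 and miR-199-3p held 3.89% and 3.11% in PC and 4.24% and 3.22% in TQ. None of these 5 shares separated the species in an exact permutation test (two-sided, p = 0.357 to 0.881). The spread of the shares was wider between PC fish than between TQ fish for all 5. Their log2FC lay between 0.20 (miR-21) and 0.85 (miR-99), with padj of 0.114 to 0.394, and was negative for miR-21 and both arms of miR-199 with total counts. Across miRNAs, the mean levels of both species ran closely together (Pearson's r of log2 CPM 0.983 over 152 miRNAs, which are not independent replicates).

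The other lists are given by their counts, beside 13.2% called among all 152. No member was called among smooth muscle (3 followed, median log2FC 0.23), epithelial (3, 0.02), let-7 (10, 0.14), miR-221 and miR-222 (4, 0.11), Hox cluster (4, 0.29), miR-99, miR-100 and miR-125 (3, 0.72), miR-199 and miR-214 (4, 0.20), miR-30 (4, 0.15), miR-15 and miR-16 (3, -0.29) and miR-130, miR-301 and miR-454 (5, -0.19) miRNAs. One was upregulated among the 5 miRNAs of sensory organs (median 0.80, miR-204-5p), the 5 of miR-23, miR-24 and miR-27 (0.55, miR-27d) and the 2 of miR-26 (0.32, miR-26a-2-3p). One was downregulated among the 12 of the miR-17-92 families (-0.19, miR-19d-3p), the 2 of hypoxia (-0.86, miR-210-5p), the 2 erythroid (-0.62, miR-451) and the 19 described in fish (0.01, miR-2188-3p). With total counts, the median turned negative for smooth muscle, epithelial, let-7, miR-221 and miR-222, Hox cluster, miR-199 and miR-214, miR-26, miR-30, neural, myogenesis-linked and fish miRNAs. miR-23a-3p, miR-24, miR-10b-5p, miR-125b-5p and miR-26a-5p were listed at 0. All of these but miR-24 have an annotated place that overlaps another mature name, so no level could be read from them.

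The mean of the hybrid lay between both parental means for 14 of the 20 DE miRNAs, beside 54 of all 152 (35.5%), and a wide gap between the parents leaves more room between them. Among those between, miR-489 averaged 176 CPM in PC, 121 CPM in TC and 73.1 CPM in TQ, miR-132-3p 88.8 CPM in PC, 43.4 CPM in TC and 26.6 CPM in TQ, and miR-210-5p 257 CPM in PC, 442 CPM in TC and 516 CPM in TQ. For miR-122 and miR-499-3p the TC mean was close to the PC mean (33.1 CPM in PC, 32.7 CPM in TC and 13.4 CPM in TQ for miR-122). For miR-26a-2-3p it was nearer to TQ (15.9 CPM in PC, 8.70 CPM in TC and 6.81 CPM in TQ). The TC mean did not lie between the parental means for miR-499-5p (1064 CPM in PC, 1187 CPM in TC and 327 CPM in TQ), miR-204-5p, miR-19d-3p, miR-223, miR-216a and miR-216b (2.11 CPM in PC, 13.5 CPM in TC and 10.2 CPM in TQ). Of these, only the TC mean of miR-216a (48.1 CPM) exceeded every single parental fish, the highest being a TQ fish at 43.6 CPM. For the others it stayed within the values of single parental fish. These means are given as a description, with no test of the TC fish.

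The members at the edge of the count minimum, which was set on the mean normalized count, were miR-216b (11.2), miR-30a-3p (10.3) and miR-31 (10.05) just inside and miR-133b-5p (8.05), miR-133c-3p (7.75) and miR-202-5p (7.69) just outside. In all, 60 names had counts below the minimum, and the 152 followed held nearly all counts. Of the 20 DE miRNAs, 13 were called in each of the 15 fits that left out 1 fish, and the other 7 were miR-7a, miR-499-3p, miR-124-5p, miR-212-5p, miR-204-5p, miR-223 and miR-451. Of the 11 alternative fits, those without a filter on low counts and with edgeR's own filter changed nothing else. These, RLE scaling and DESeq2 without a prior each called all 20, so every DE miRNA was called in at least 4 of 11. miR-132-3p and miR-216a were called in all 11. In 10 of the 11 this held for miR-499-5p, miR-489, miR-19d-3p, miR-210-5p, miR-2188-3p and miR-216b, in 9 for miR-499-3p, miR-27d and miR-223, in 8 for miR-7a, miR-122, miR-146b, miR-26a-2-3p, miR-192 and miR-451, in 6 for miR-124-5p and miR-212-5p and in 4 for miR-204-5p. Some miRNAs not called in the main fit were also called in alternatives, miR-150 in 7 of the 11, miR-1388-3p and miR-210-3p in 6 each, miR-2188-5p in 5 and miR-155 in 4. No DE miRNA changed direction in any of the 11. The fit with the fish number as a block, 1 of the 11, used fewer fish for the contrast, as given below.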

How the data were processed

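Small RNA libraries (TruSeq, Illumina HiSeq, single-end) were made from fast muscle of 5 PC, 5 TQ and 5 TC fish, 1 fish per library. The authors clipped reads and filtered them by quality with the Fastx-toolkit, and removed reads above a maximum length with a custom Perl program. They placed mature miRNAs on Danio rerio precursors of miRBase with GMAP, aligned with Hisat2 and counted with featureCounts. The deposited raw counts per mature copy were tested here, and the deposited normalized signal, the authors' counts divided by DESeq2 size factors, set the minimum mean of 10. How reads matching several places were counted is not given in the sources used here, so copies and close relatives may share reads, and a miRNA that differs from the zebrafish sequence may be undercounted in one species. The size-filtered read totals of the study served as library sizes in 1 alternative.

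All 15 fish entered 1 fit in edgeR 4.0.16 (quasi-likelihood, TMM) under R 4.3.3, with the contrast PC minus TQ and Benjamini-Hochberg adjustment over 152 miRNAs. The SE is the size of the log2FC over the square root of F. CPM used TMM-scaled library sizes of one copy per name. The common biological coefficient of variation was 0.279. Arm and copy ratios (0.5 added to each count), shares, totals and the separation of the species were tested by exact permutation over 252 arrangements (two-sided, smallest p 0.00794). Alternatives included DESeq2 1.42.0, and the closing section gives their effect. On simulated data for this comparison, over 152 miRNAs, 85% of 20 miRNAs set to a log2FC of 1 and 100% of 20 set to 2 were called, with 2 calls among 112 left unchanged. The simulated counts were drawn independently for each miRNA and fish from the means and spread that the fit itself estimated. They hold no shift shared by the miRNAs of a fish, so these rates need not carry over to the real fish. The labels do not say whether fish shared a tank, so p-values measure the spread between these fish.

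The members and lists were chosen with earlier results of these data known. Named were all called miRNAs and their other arms, the 5 largest changes missing the padj threshold, the 5 smallest padj missing the log2FC minimum, the 5 most abundant miRNAs, members of the muscle, blood, pancreas, liver, endothelium and hypoxia lists, ratios past their threshold, and the 3 names on each side of the minimum. Others named were chosen after their values were seen.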

Additional observations from a re-analysis of the deposited data

Results flagged for a closer look

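A single fish lay far from the other 4 of its species for 7 of 104 groups of values examined with Dixon's criterion, and chance alone gives about 5.2 at 1 in 20. PC8 stood out for miR-100-5p, with 621624 CPM against 139880 to 279333 CPM in the other PC fish. It also stood out for miR-146b, with 3090 CPM against 915 to 1452 CPM, and for miR-27d, with 1410 CPM against 980 to 1052 CPM. These CPM values carry the TMM factor of PC8, 0.572, which was the lowest. In counts, PC8 had 1985 of miR-27d, within the 1289 to 2777 of the other PC fish. Its total count was the highest of the PC fish. PC4 stood out for miR-222a-3p, with 1449 CPM against 724 to 932 CPM, and for miR-724, with 79.0 CPM against 13.9 to 19.2 CPM. TQ8 had 5259 CPM of miR-92a-3p against 3684 to 3892 CPM in the other TQ fish. TQ2 had a total of 4143529 counts against 2448658 to 2932943 in the other TQ fish.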

How the results depend on the processing

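The 20 DE miRNAs became 7 when size-filtered read totals set the library sizes (4 up, 3 down) and 7 with the fish number as a replicate block (3 up, 4 down, 6 of them shared). The labels name no pairing by number, and the deviations of same-numbered fish correlated at 0.02 (PC3 with TQ3) and -0.51 (PC8 with TQ8). In the block fit, PC10, TQ1 and TQ2 share their number with no other fish and could not inform the contrast. Fewer calls follow from that loss too, so the block fit does not measure stability alone. DESeq2 without a log2FC prior called 28 (15 up, 13 down), including all 20, and with a prior 23 (14 up, 9 down), including 19. With copies summed there were 22 (10 up, 12 down), 17 of them among the 20. Leaving out 1 fish gave 13 (without TQ8) to 32 (without PC4) DE miRNAs, 17 to 27 without overlap, 0 to 2 copy ratios, 0 arm ratios, a separation of 35.7% to 44.4% (p of up to 0.0159, exact permutation) and a total count difference of 1217479 to 1760386 (p of up to 0.0635, exact permutation). With total counts, the log2FC turned to -0.085 for miR-144-3p, -0.36 for miR-181a-5p, -0.049 for miR-199-3p, -0.075 for miR-199-5p, -0.13 for miR-21 and -0.37 for miR-214. miR-181a-5p also turned to -0.041 (RLE, DESeq2 without a prior), -0.039 (DESeq2 with a prior), -0.048 (size-filtered reads), -0.054 (only PC and TQ fish), -0.10 (copies summed), -0.12 (each copy apart) and -0.025 (replicate block), and miR-214 to -0.018 (RLE, DESeq2 without a prior), -0.017 (DESeq2 with a prior), -0.048 (size-filtered reads), -0.035 (only PC and TQ fish), -0.088 (copies summed) and -0.095 (each copy apart). Leaving out 1 fish, they ranged from -0.069 to 0.030 (miR-181a-5p) and from -0.068 to 0.13 (miR-214). None of these 6 was DE, and the cause was not tested. They are the reversals among the 51 miRNAs named by the rule above. Outside that set more miRNAs reversed with total counts. Of the 10 let-7 miRNAs, 6 were positive in the main fit and 0 with total counts. Over the named miRNAs, 461 alternative values kept direction and side of the threshold, 47 fell short of it, 32 passed it and 21 reversed. Counts of a few reads, as for miR-216b, miR-7a and miR-124-5p, limit the precision of those log2FC.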

Other observations

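The 2 passenger strands of miR-26a differed in direction, a pair chosen after its values were seen. miR-26a-2-3p was upregulated in PC, as given above, while miR-26a-3p had 311, 357, 251, 206 and 196 CPM in PC, against 391, 455, 373, 402 and 329.7 CPM in TQ (log2FC = -0.56 ± 0.17 (SE), padj = 0.0296), which passed the padj threshold and missed the log2FC minimum. Their guide strand miR-26a-5p was listed at 0, but its annotated place overlaps another mature name, so no level could be read from it. The difference between both strands was not tested.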
